A study of Mus musculus with 14 samples.

Results

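Mouse blastocysts grown in the paired media ISM1 and ISM2 were set against blastocysts grown in KSOM(aa), on all 5 arrays that carry these 2 labels out of the 14 in the series. Transcript levels were read on single-colour Illumina bead arrays, from 150 ng of DNA-free total RNA labelled with biotin during 12 h of in vitro transcription. ISM1/ISM2 had 3 arrays and KSOM(aa) had 2. The other 9 arrays, 3 each of HTF/MultiBlast (cell type given as multiblastocyst), oviduct and micromanipulation control, entered the fit for its estimate of spread and are quoted where they place a value. The labels give no strain, embryo age, oxygen level or media recipe, and they do not say whether an array held 1 embryo or a pool. The design text names the replicates biological, yet nothing ties them to separate cultures, so the p-values measure the spread between these samples. Unless stated, p-values and standard errors use a spread pooled over the 5 groups. Where the 2 KSOM(aa) arrays lie far apart, they can therefore understate the uncertainty of KSOM(aa). The labels do not settle whether MultiBlast names a medium or a kind of embryo, and the 3 control arrays share the replicate number 1 in their descriptions.

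ISM1 and ISM2 are sold as a sequential pair, the first for cleavage and the second for growth to the blastocyst. KSOM(aa) is a single potassium-rich simplex medium with added amino acids. At the blastocyst stage an outer trophectoderm, which pumps salt and water into a cavity, surrounds an inner cell mass that divides into epiblast and primitive endoderm. Primitive endoderm lays down laminin and collagen IV for the embryo's basement membranes. Mammalian cells answer a shortage of amino acids, and stress in the endoplasmic reticulum, through kinases that phosphorylate eIF2alpha. Translation of the factor ATF4 then rises, and ATF4 with C/EBP partners binds a short element, CARE, near genes for amino acid uptake, amino acid synthesis and tRNA charging. The study's purpose with this pair of groups is not stated in the labels beyond the comparison of media.

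Of 25697 probes, 10975 had a detection p under 0.01 on at least 2 of the 14 arrays and were tested. They gave 8669 units, 8025 genes each represented by its brightest probe and 644 probes without a gene symbol. Values are log2 intensities after background correction and quantile normalization, and a difference is ISM1/ISM2 minus KSOM(aa) on that scale. The added offset of 16 draws low values together, so the differences of dim genes are understated. Median raw intensity of the 5 arrays ran from 118 to 146 and detected probes from 9065 to 9691, and the number of arrays limits the precision. The 3 ISM1/ISM2 arrays correlated at 0.967 to 0.984 with each other over the units, and the KSOM(aa) arrays at 0.940, within the 0.916 to 0.944 seen between the groups. KSOM(aa) replicates 1 and 2 lay over 1 log2 unit apart in 1522 units (17.6%), 94 of which were called. All 5 trophectoderm markers (*Cdx2*, *Krt8*, *Krt18*, *Gata3*, *Eomes*) and all 5 inner cell mass markers (*Pou5f1*, *Nanog*, *Sox2*, *Gata6*, *Sox17*) were detected on each of the 5 arrays. None of the 5 measured blood and immune markers or the 5 cumulus and granulosa markers was detected on any of them, and of 5 muscle and stroma markers only *Acta2* was, on 1 KSOM(aa) array. Of 7 oviduct epithelium markers, *Ovgp1*, *Pax8*, *Krt5* and *Tppp3* were detected on 0 of the 5 arrays, *Foxj1* on 1 of each group, and *Wfdc2* and *Elf3* on all. The oocyte gene *Gdf9* was detected on all 5, *Oosp1* on 1 ISM1/ISM2 array and *Zp3* on 0. The summed level of the trophectoderm markers was 14.71 to 15.10 log2 units over the ISM1/ISM2 arrays and 14.72 to 15.56 over the KSOM(aa) arrays, and that of the inner cell mass markers 12.93 to 13.18 and 13.10 to 13.51. For oviduct epithelium it was 13.01 to 13.46 in ISM1/ISM2 and 13.15 to 13.52 in KSOM(aa).

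Genes of amino acid uptake and of the amino acid response, laminins and other basement membrane genes, and several trophectoderm regulators were lower in ISM1/ISM2 blastocysts. Genes of betaine and phosphatidylcholine metabolism, a few lipid synthesis genes, the antiviral gene *Oasl2* and 3 imprinted genes of distal chromosome 7 were higher. In all, 1006 of 8669 units (11.6%) were called at an adjusted p under 0.05, 545 higher (6.29%) and 461 lower (5.32%), and 2289 had an unadjusted p under 0.05. Of those called, 708 differed by at least 2-fold (377 higher, 331 lower) and 147 by at least 4-fold (76 higher, 71 lower). The ISM1/ISM2 and KSOM(aa) arrays did not overlap in any called unit, and neither did they in 38.6% of all units. Leaving out 1 array at a time gave 14 fits, and 331 units (3.82% of those tested), 176 higher and 155 lower, were called in every one. Of these fits, the 2 without a KSOM(aa) array left that group with 1 array. Every called unit that stayed called in both of them was also called in the rest. With only the 2 groups in the fit 263 units were called, and with array weights 347. The count became 601 without ISM1/ISM2 replicate 1, 625 without KSOM(aa) replicate 2 and 1262 without KSOM(aa) replicate 1.

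**Figure D1:**
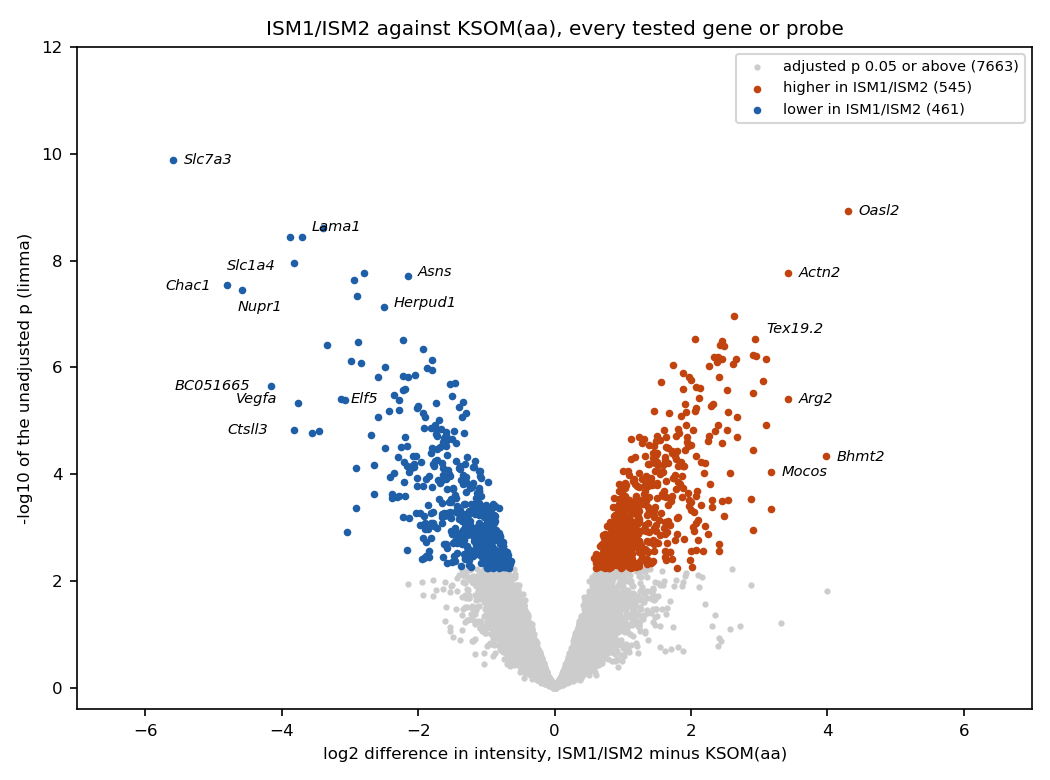
Each point is a tested gene or probe, with its log2 difference in intensity (ISM1/ISM2 minus KSOM(aa)) across and the negative log10 of limma's unadjusted p upward. Red points (545) were higher in ISM1/ISM2, blue points (461) lower, and grey points did not pass. Genes dark in 1 group, such as *Slc7a3* at the far left and *Oasl2* at the far right, are drawn at fitted values, for which the text gives bounds.

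The CARE element was searched as the site through which ATF4 acts. It was written as TGATGNAA and searched on both strands from 250 bases before to 50 bases after each start of a gene, in RefSeq sequences of GRCm38.p6. Promoters were counted by gene, and a gene with several starts held a match if any of its windows did. A match was found in 1219 of 27025 promoters (4.51%), and in 186 of the 6622 tested genes that had a sequence (2.81%). Among measured genes of the 4 amino acid lists described next, 14 of 61 promoters held a match (23%): 9 of 23 called lower (39.1%) and 5 of 38 not called (13.2%). These lists hold kinds of gene near which ATF4 binds, and were chosen with earlier results of these data known. A share above that of all genes was therefore partly set by the choice of members. The same holds for the elements searched in other lists below. Over all tested genes, matches were in 20 of 354 promoters of genes called lower (5.65%), 6 of 396 called higher (1.52%) and 160 of 5872 not called (2.72%). These counts include the genes of the 4 lists, which hold 9 of the 20 promoters with a match among genes called lower. They are therefore not separate from the choice of members. The 250 bases before the start are shown for *Chac1* and *Asns*, and 60 bases around the match for 6 more genes called lower, with the match in capitals and each sequence 5′ to 3′ on the gene's strand. In *Asns* the match reads along the gene, and in the other 7 it lies on the opposite strand, so that its reverse complement TTGCATCA appears.
Chac1 (chr2:119350992-119351241, plus strand): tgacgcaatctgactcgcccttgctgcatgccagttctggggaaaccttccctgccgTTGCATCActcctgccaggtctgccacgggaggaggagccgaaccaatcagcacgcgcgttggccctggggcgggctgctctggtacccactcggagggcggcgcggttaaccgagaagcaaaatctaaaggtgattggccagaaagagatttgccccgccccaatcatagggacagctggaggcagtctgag
Asns (chr6:7693210-7693459, minus strand): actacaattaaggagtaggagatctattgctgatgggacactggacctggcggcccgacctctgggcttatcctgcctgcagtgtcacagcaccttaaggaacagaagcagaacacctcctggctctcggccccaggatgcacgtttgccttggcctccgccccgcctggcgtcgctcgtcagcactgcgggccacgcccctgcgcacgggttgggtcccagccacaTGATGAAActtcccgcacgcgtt
Nupr1 (chr7:126625547-126625606, minus strand): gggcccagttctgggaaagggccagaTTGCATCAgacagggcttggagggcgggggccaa
Herpud1 (chr8:94386291-94386350, plus strand): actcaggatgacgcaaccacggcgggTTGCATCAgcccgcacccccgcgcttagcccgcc
Slc1a4 (chr11:20332684-20332743, minus strand): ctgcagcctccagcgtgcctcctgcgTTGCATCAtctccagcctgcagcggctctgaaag
Vldlr (chr19:27216794-27216853, plus strand): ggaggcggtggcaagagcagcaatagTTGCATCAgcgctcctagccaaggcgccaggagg
Aars (chr8:111033704-111033763, plus strand): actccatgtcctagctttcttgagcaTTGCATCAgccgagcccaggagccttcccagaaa
Tars (chr15:11399640-11399699, minus strand): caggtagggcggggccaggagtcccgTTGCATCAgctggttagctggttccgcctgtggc
The match begins at -193 from the start in *Chac1*, at -23 in *Asns*, at -110 in *Nupr1*, at -112 in *Herpud1* and *Aars*, at -4 in *Slc1a4*, at -200 in *Vldlr* and at -15 in *Tars*. *Aars* has a further match after its start, at 10, and *Iars*, also called lower, has its match at 8. The 5 genes of these lists with a match that were not called were *Jdp2*, *Slc7a7*, *Gars*, *Got1* and *Yars*. A match is a run of letters and was not tested for binding.

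Amino acid transporters held some of the largest falls of the comparison. Of 14 measured genes, 9 fell and 0 rose (64.3% called), with a median difference of -1.62 against -0.005 over all units. *Slc7a3*, a carrier of arginine and lysine, had log2 intensities of 4.65, 5.23 and 4.77 in ISM1/ISM2, where no array detected it, and 10.42 and 10.53 in KSOM(aa). The groups lay far apart, and *Slc7a3* was at least 34.3-fold lower in ISM1/ISM2 (adjusted p = 1.13e-06). *Slc1a4*, an exchanger of serine, alanine and other small neutral amino acids, read 5.62, 5.79 and 5.22 in ISM1/ISM2 and 9.21 and 9.53 in KSOM(aa), a difference of -3.83 ± 0.31 SE (adjusted p = 1.64e-05). Of the 3 ISM1/ISM2 arrays, 2 detected *Slc1a4*. *Slc38a2*, the sodium-coupled carrier that cells raise when amino acids run short, read 6.58, 6.69 and 6.66 in ISM1/ISM2 and 10.65 and 9.31 in KSOM(aa), a difference of -3.34 ± 0.36 (adjusted p = 0.000151). The ISM1/ISM2 arrays agreed closely here while the KSOM(aa) arrays were apart. One other probe of *Slc38a2*, dark in ISM1/ISM2, was lower as well (adjusted p = 0.00129) and another, detected on 3 of the 5 arrays, -0.21 (adjusted p = 0.651). Both chains of the large neutral amino acid exchanger fell, the light chain *Slc7a5* by 2.36 and its partner *Slc3a2* by 1.70 (adjusted p = 0.000466 and 0.000916). *Slc7a8*, another light chain, fell by 1.65 (adjusted p = 0.00288). *Slc6a9*, the glycine transporter, fell by 2.38 (adjusted p = 0.00664), and its call ended without KSOM(aa) replicate 2 (0.0515). *Slc38a7* fell by 1.58 (adjusted p = 0.0431) but its call was lost in 11 of the 14 fits with 1 array left out, reaching 0.307 without KSOM(aa) replicate 2. Of the 14 genes, 1 lay above 0, at 0.44.

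Most genes that report the amino acid response were lower, although the transcript of its central factor did not pass. Of 15 measured genes, 9 fell and 0 rose (60%), with a median of -1.81 (-1.61 with dark genes at their bound). *Chac1*, which encodes an enzyme that breaks down glutathione, had 6.95, 5.19 and 5.94 in ISM1/ISM2 and 10.47 and 11.18 in KSOM(aa). Although the ISM1/ISM2 arrays spanned almost 2 log2 units, all lay far below KSOM(aa), and the level was 27.8-fold lower (-4.80 ± 0.42, adjusted p = 2.31e-05). Of the 3 ISM1/ISM2 arrays, 2 detected *Chac1*. *Nupr1*, a small stress-induced chromatin protein, was detected on 0 ISM1/ISM2 arrays (4.62, 4.88 and 4.50) and both KSOM(aa) arrays (9.58 and 8.92), at least 14.7-fold lower (adjusted p = 2.53e-05). *Atf5*, a leucine zipper factor related to *Atf4*, read 7.35, 7.10 and 6.78 in ISM1/ISM2 and 9.74 and 11.54 in KSOM(aa), a difference of -3.56 ± 0.55 (adjusted p = 0.00132). *Herpud1*, a membrane protein of the endoplasmic reticulum that serves protein disposal, read 9.42, 9.31 and 9.41 in ISM1/ISM2 and 11.76 and 12.02 in KSOM(aa). That was -2.51 ± 0.24 (adjusted p = 4.68e-05), and a further probe gave -2.77. *Ddit3*, which encodes the factor CHOP, read 5.91, 6.67 and 7.09 in ISM1/ISM2 and 8.43 and 8.21 in KSOM(aa), a difference of -1.77 ± 0.42 (adjusted p = 0.0154). Its call ended without ISM1/ISM2 replicate 1, KSOM(aa) replicate 1 or KSOM(aa) replicate 2 (adjusted p = 0.0599, 0.0565 and 0.0545). *Cebpb*, a partner of ATF4, fell by 1.81 (adjusted p = 0.00122), with 1 of 3 ISM1/ISM2 arrays detecting it. *Ddit4*, an inhibitor of the growth kinase mTORC1, fell by 2.92 (adjusted p = 0.00941). *Vldlr*, a lipoprotein receptor, and *Stc2*, a secreted stanniocalcin, were dark in ISM1/ISM2 and at least 3.05- and 2.63-fold lower (adjusted p = 0.0118 and 0.024). The call of *Ddit4* ended without KSOM(aa) replicate 2 (0.107), that of *Vldlr* without KSOM(aa) replicate 1 (0.0715), and *Stc2* without ISM1/ISM2 replicate 1 or 3 or KSOM(aa) replicate 2 (0.0633, 0.0587 and 0.189). *Atf4* itself read 5.51, 5.76 and 6.09 in ISM1/ISM2 and 5.44 and 7.55 in KSOM(aa). These overlap, and the difference of -0.70 ± 0.43 did not pass (adjusted p = 0.329). It was -1.76 without KSOM(aa) replicate 1 (adjusted p = 0.00263) and 0.35 without KSOM(aa) replicate 2 (0.511), so that its sign turned with the KSOM(aa) array that was kept. *Trib3*, an inhibitor that ATF4 induces, did not reach the detection filter.

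Synthesis genes that fell were few but fell far. Among 18 measured genes of amino acid and folate-linked synthesis, 4 fell and 1 rose (27.8%), and the median of -0.47 (-0.37 with dark genes at their bound) turned to 0.06 without KSOM(aa) replicate 2. *Asns*, asparagine synthetase, read 11.16, 10.90 and 10.99 in ISM1/ISM2 and 13.13 and 13.21 in KSOM(aa), a difference of -2.15 ± 0.18 (adjusted p = 1.84e-05). A further probe gave -2.73 (adjusted p = 2.01e-05), and another, detected on 1 of the 5 arrays, did not pass (0.242). *Aldh18a1*, which makes the precursor of proline, read 7.11, 6.20 and 6.81 in ISM1/ISM2 and 9.63 and 9.92 in KSOM(aa) (-3.07 ± 0.41, adjusted p = 0.000531). *Mthfd2* and *Shmt2*, enzymes of the mitochondrial folate pathway, fell by 2.89 and 1.88 (adjusted p = 0.000146 and 0.00425). In each of these 4 genes every ISM1/ISM2 array lay below every other array of the series, and each was called in all 14 fits. *Gpt*, an alanine aminotransferase, rose by 1.00 (adjusted p = 0.0333). Its call ended without ISM1/ISM2 replicate 1 or 2, KSOM(aa) replicate 2 or control replicate 2 (0.0951, 0.0872, 0.207 and 0.0506).

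A minority of the aminoacyl-tRNA synthetases, which load amino acids onto tRNAs, passed. Of 27 measured genes, 7 fell and 0 rose (25.9%), with 7 above 0 and a median of -0.65 (-0.33 with the 1 dark gene at its bound). Only 1 was called with only the 2 groups in the fit, and 2 with array weights. *Nars*, for asparagine, read 9.81, 10.03 and 9.98 in ISM1/ISM2 and 11.36 and 12.00 in KSOM(aa), a difference of -1.74 ± 0.24 (adjusted p = 0.000568), and was called in all 14 fits. *Lars*, for leucine, fell by 1.53 and *Wars*, for tryptophan, by 0.88 (adjusted p = 0.00813 and 0.00892), and *Aars*, *Rars*, *Tars* and *Iars* fell by 0.82 to 1.03 (adjusted p = 0.0191 to 0.0412). The other 2 probes of *Wars* gave -1.13 and -0.78 and did not pass (adjusted p = 0.12 and 0.117). Without KSOM(aa) replicate 2 the count was 1 and the median -0.15, *Lars* moved to -0.95 (adjusted p = 0.0897) and *Wars* to -0.76 (0.0679), and the other 4 were lost (0.0804 to 0.197). Without ISM1/ISM2 replicate 1 the count was 4.

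**Figure D2:**
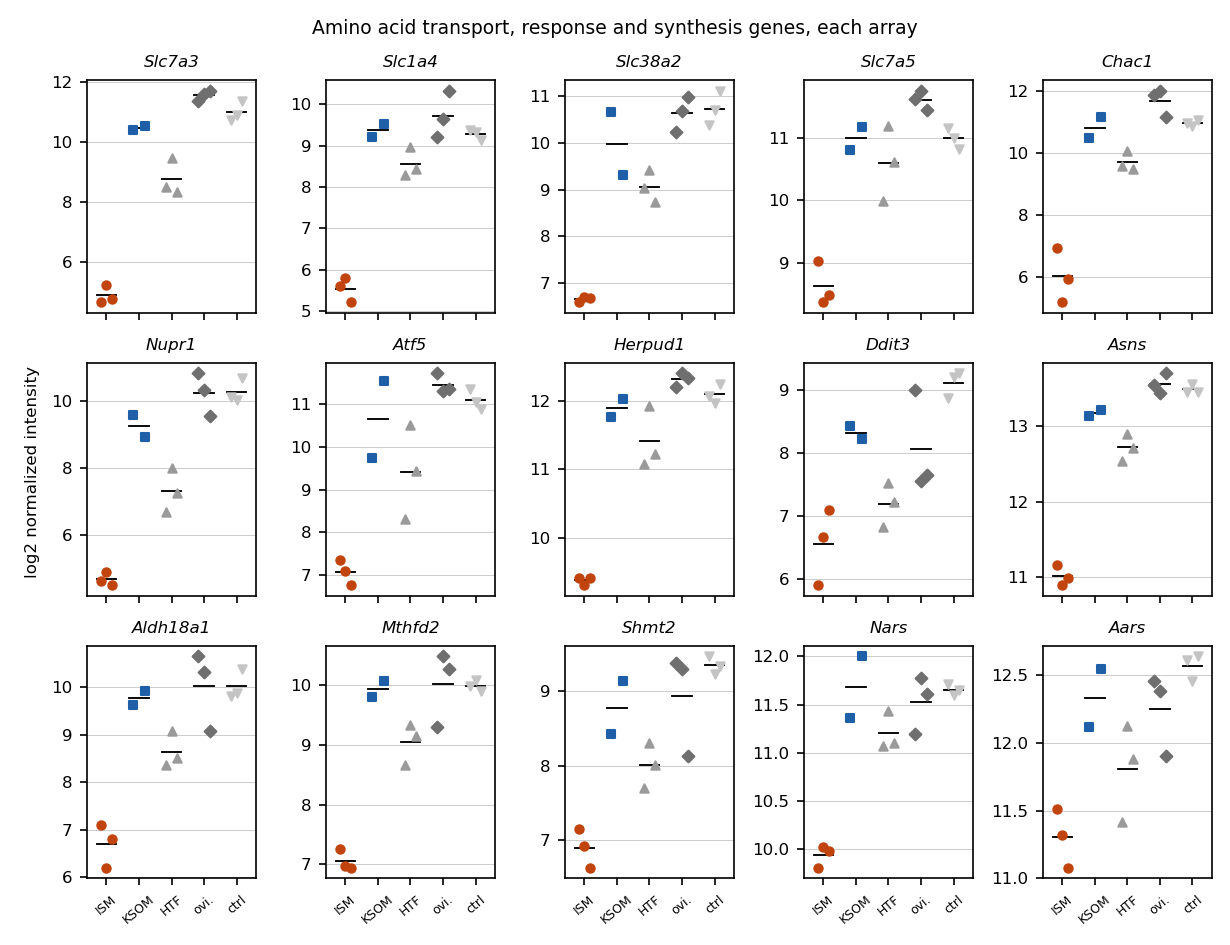
Log2 normalized intensity of 15 amino acid genes on each of the 14 arrays, with ISM1/ISM2 as red circles, KSOM(aa) as blue squares, and HTF/MultiBlast, oviduct and micromanipulation control (ctrl) in grey, each bar being a group mean. Each panel has its own scale. In every panel but *Ddit3* and *Aars* the 3 ISM1/ISM2 arrays lie below all 11 others, and the HTF/MultiBlast mean lies between those of ISM1/ISM2 and KSOM(aa).

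Chaperones of the unfolded protein response, which shares *Herpud1* with the list above, moved less. Of 15 measured genes, 2 fell and 0 rose (13.3%, near the 11.6% of all units), with a median of -0.54, and 14 of the 15 lay below 0. *Xbp1*, the factor that drives secretory capacity, read 10.53, 10.44 and 10.71 in ISM1/ISM2 and 11.69 and 12.03 in KSOM(aa), a difference of -1.30 ± 0.25 (adjusted p = 0.00477). *Hspa5*, the main chaperone of the endoplasmic reticulum, read 8.97, 9.22 and 10.01 in ISM1/ISM2 and 10.04 and 9.83 in KSOM(aa). These overlap, and the difference of -0.54 ± 0.32 did not pass (adjusted p = 0.316). Without KSOM(aa) replicate 1 the list had 4 falls. The element ERSE, through which chaperone genes answer unfolded protein, was searched on both strands as CCAAT, 9 bases of any kind and CCACG. It was found in 6 of 14 promoters of the list (42.9%) and in 0.137% of all promoters, in *Creld2*, *Dnajc3*, *Hsp90b1*, *Hspa5*, *Pdia6* and *Syvn1*. None of these 6 was called, and their differences ran from -0.64 to -0.42. The window of *Hspa5* is shown as the counterpart of the CARE sequences, with the match in capitals.
Hspa5 (chr2:34772004-34772063, plus strand): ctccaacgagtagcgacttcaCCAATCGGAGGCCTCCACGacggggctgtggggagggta

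Many basement membrane and primitive endoderm genes were lower in ISM1/ISM2. In whole blastocysts, fewer cells of a type and less RNA per cell cannot be told apart. Of 18 measured basement membrane genes, 9 fell and 0 rose (50%), with a median of -1.03 and 17 of 18 below 0. All 3 chains of laminin-111 fell. *Lama1* read 7.35, 7.44 and 7.80 in ISM1/ISM2 and 11.10 and 11.38 in KSOM(aa), 13.1-fold lower (-3.71 ± 0.27, adjusted p = 6.25e-06). *Lamb1* read 7.19, 7.46 and 7.58 in ISM1/ISM2 and 9.49 and 9.76 in KSOM(aa) (-2.22 ± 0.27, adjusted p = 0.000279). *Lamc1* read 5.53, 5.72 and 6.09 in ISM1/ISM2 and 7.65 and 8.76 in KSOM(aa) (-2.42 ± 0.34, adjusted p = 0.000704). In all 3 genes the ISM1/ISM2 arrays were below the other 11 arrays. The collagen IV chains *Col4a1* and *Col4a2* fell by 1.17 and 1.25 (adjusted p = 0.00271 and 0.0307). The call of *Col4a2* ended without ISM1/ISM2 replicate 2 or 3 or KSOM(aa) replicate 2 (0.0805, 0.0832 and 0.176). *Serpinh1*, the collagen chaperone of the endoplasmic reticulum, was detected on 0 ISM1/ISM2 arrays (5.29, 5.28 and 5.0) and both KSOM(aa) arrays (7.84 and 8.13), at least 6.09-fold lower (adjusted p = 1.84e-05). *Hspg2*, the proteoglycan perlecan, was likewise dark in ISM1/ISM2, at least 4.64-fold lower (adjusted p = 0.000279). *Plod2*, a lysyl hydroxylase of collagen, fell by 1.34 (adjusted p = 0.0169), and its call ended without ISM1/ISM2 replicate 1 or KSOM(aa) replicate 1 (0.0512 and 0.0778).

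Among 16 measured primitive endoderm genes, 8 fell and 0 rose (50%), with a median of -0.81, and 3 of the 16 lay above 0, up to 1.32. In some fits, among them those without oviduct replicate 3 and with the replicate number as a block, 1 gene was called higher. *Serpinh1* and *Sparc*, a secreted matrix glycoprotein that fell by 2.08 (adjusted p = 0.00241), also stand in the basement membrane list. The factor *Sox17* read 8.41, 7.68 and 8.48 in ISM1/ISM2 and 10.51 and 9.74 in KSOM(aa), a difference of -1.94 ± 0.37 (adjusted p = 0.00514), and a further probe gave -2.24. Its relative *Sox7* was dark in ISM1/ISM2 (4.89, 4.64 and 4.68 in ISM1/ISM2 and 6.81 and 6.66 in KSOM(aa)), at least 2.56-fold lower (adjusted p = 0.000608). *Srgn*, a proteoglycan core protein, was dark as well (4.56, 4.55 and 4.44 in ISM1/ISM2 and 7.59 and 7.23 in KSOM(aa)), at least 4.09-fold lower (adjusted p = 3.08e-05), and a further probe, also dark in ISM1/ISM2, was lower (adjusted p = 0.0353). *Pth1r*, the parathyroid hormone receptor of parietal endoderm, was at least 2.41-fold lower (adjusted p = 0.00357). *Amn*, a partner of the uptake receptor cubilin, fell by 1.43 and *Pdgfra*, the receptor kinase of the lineage, by 1.21 (adjusted p = 0.00892 and 0.0332). The call of *Amn* ended without KSOM(aa) replicate 2 (0.0923), and that of *Pdgfra* without ISM1/ISM2 replicate 2 or either KSOM(aa) array (0.104, 0.13 and 0.0667). *Gata6*, the factor that starts the lineage, did not pass. Its 12.06, 11.66 and 12.05 in ISM1/ISM2 and 12.37 and 12.16 in KSOM(aa) gave -0.34 ± 0.20 (adjusted p = 0.318).

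Trophectoderm genes fell in part, with the core regulator *Cdx2* not passing. Of 27 measured genes, 8 fell and 0 rose (29.6%), with a median of -0.47 and 22 of 27 below 0. *Elf5*, a factor of trophoblast stem cells, read 6.33, 8.23 and 6.88 in ISM1/ISM2 and 10.56 and 10.01 in KSOM(aa), 8.80-fold lower (-3.14 ± 0.42, adjusted p = 0.000517). *Eomes*, a T-box factor, read 8.91, 9.39 and 9.35 in ISM1/ISM2 and 10.73 and 10.65 in KSOM(aa) (-1.47 ± 0.22, adjusted p = 0.00126). The water channel *Aqp8* read 5.73, 6.24 and 6.21 in ISM1/ISM2 and 7.82 and 8.75 in KSOM(aa) (-2.23 ± 0.29, adjusted p = 0.000378). All 3 genes were lower in ISM1/ISM2 than in any other array, and all were called in the 14 fits. The X-linked placental gene *Plac1* fell by 1.65, *Gata2* by 1.11, *Atp1b1*, a subunit of the sodium pump, by 1.10 and *Ets2* by 1.05 (adjusted p = 0.0121, 0.00593, 0.00351 and 0.0171). The call of *Gata2* ended without KSOM(aa) replicate 2 (0.0637) and that of *Ets2* without ISM1/ISM2 replicate 1 or KSOM(aa) replicate 2 (0.0635 and 0.0892). *Aqp3* fell by 1.45 (adjusted p = 0.0407) but moved to -0.77 without KSOM(aa) replicate 2 (0.328) and was lost in 8 fits. *Cdx2* read 12.30, 12.62 and 12.15 in ISM1/ISM2 and 12.41 and 13.67 in KSOM(aa), an overlap, with -0.69 ± 0.30 (adjusted p = 0.16). It passed without KSOM(aa) replicate 1 (-1.32, adjusted p = 0.00601). *Gata3* read 9.17, 9.43 and 9.94 in ISM1/ISM2 and 10.24 and 10.38 in KSOM(aa), a difference of -0.80 ± 0.25 that missed the threshold (adjusted p = 0.0523) and passed without ISM1/ISM2 replicate 3 or oviduct replicate 1 or 3. The list had 5 falls without KSOM(aa) replicate 2.

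Of 20 measured epiblast and pluripotency genes, 5 fell and 0 rose (25%), with a median of -0.61 (-0.56 with dark genes at their bound). Of the 20, 6 lay above 0, up to 1.04. In several fits 1 gene was called higher. Among these were the fits without oviduct replicate 1 or 3, with offset 50 and with the replicate number as a block. *Bmp4*, a signal from the epiblast, read 5.62, 6.31 and 4.63 in ISM1/ISM2 and 7.43 and 7.17 in KSOM(aa) (-1.78 ± 0.39, adjusted p = 0.0105). *Lefty2*, an inhibitor of Nodal signals, was dark in ISM1/ISM2 and at least 1.67-fold lower (adjusted p = 0.0027). *Tbx3*, *Klf4* and *Dnmt3b* fell by 1.03, 1.14 and 0.66 (adjusted p = 0.0163, 0.019 and 0.0444). The call of *Tbx3* ended without ISM1/ISM2 replicate 2 or KSOM(aa) replicate 2 (0.0537 and 0.126), that of *Klf4* without ISM1/ISM2 replicate 2 or KSOM(aa) replicate 1 (0.0687 and 0.136), and that of *Dnmt3b* in 11 of 14 fits, with 0.163 without KSOM(aa) replicate 1. Without ISM1/ISM2 replicate 2 the list had 2 calls. *Nanog*, with 12.06, 11.97 and 12.11 in ISM1/ISM2 and 12.19 and 11.48 in KSOM(aa), overlapped and did not pass (0.21 ± 0.24, adjusted p = 0.629). *Pou5f1*, which encodes OCT4, read 8.13, 8.23 and 7.86 in ISM1/ISM2, while the KSOM(aa) arrays stood far apart at 5.77 and 8.75. Its difference was 0.81 ± 0.63 (adjusted p = 0.449), -0.68 without KSOM(aa) replicate 1 and 2.30 without KSOM(aa) replicate 2, where it passed (adjusted p = 0.00987). A further probe gave -0.17 (adjusted p = 0.813).

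Imprinted genes, which are read from the maternal or the paternal copy, had calls in both directions, and both the rises and the falls depended on the fit. Of 22 measured genes, 4 rose and 4 fell (36.4%), with a median of 0.10 that was -0.01 without KSOM(aa) replicate 1. With only the 2 groups in the fit 2 rose and 0 fell, and with array weights 3 rose and 0 fell. The 3 called genes of the *Kcnq1* cluster on distal chromosome 7 were higher. *Slc22a18*, an organic cation carrier, read 7.45, 7.23 and 7.57 in ISM1/ISM2 and 4.78 and 5.90 in KSOM(aa) (2.08 ± 0.26, adjusted p = 0.000364). *Cd81*, a tetraspanin, read 12.47, 12.20 and 12.25 in ISM1/ISM2 and 10.47 and 10.88 in KSOM(aa) (1.63 ± 0.25, adjusted p = 0.00142). *Cdkn1c*, an inhibitor of the cell cycle, read 10.46, 9.88 and 9.29 in ISM1/ISM2 and 8.35 and 7.11 in KSOM(aa) (2.15 ± 0.46, adjusted p = 0.00885), and did not pass without KSOM(aa) replicate 2 (0.0958) or with only the 2 groups (0.0722). *Impact*, a regulator of eIF2alpha kinase signalling, rose by 1.73 (adjusted p = 0.00707), and by 1.12 without KSOM(aa) replicate 2 (0.0782). *Igf2*, the embryonic growth factor of the neighbouring chromosome 7 cluster, read 9.85, 9.97 and 9.13 in ISM1/ISM2 and 10.94 and 10.87 in KSOM(aa) (-1.25 ± 0.28, adjusted p = 0.011), and did not pass with only the 2 groups or with array weights (0.0912 and 0.161). *Grb10*, an adaptor that restrains growth signals, read 8.11, 8.32 and 7.35 in ISM1/ISM2 and 10.31 and 9.11 in KSOM(aa) (-1.78 ± 0.41, adjusted p = 0.0141), and -1.18 without KSOM(aa) replicate 1 (0.104). The amino acid carrier *Slc38a4*, counted among the transporters too, fell by 1.08 (adjusted p = 0.00693, but 0.0789 with only the 2 groups and 0.062 with array weights) and lay below all other arrays in ISM1/ISM2 and above all others in KSOM(aa). *Mkrn3* fell by 1.48 (adjusted p = 0.035), and its call ended without ISM1/ISM2 replicate 2 or 3 or KSOM(aa) replicate 1 (0.0814, 0.1 and 0.212). *Mest* overlapped and did not pass (0.36 ± 0.45, adjusted p = 0.667).

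**Figure D3:**
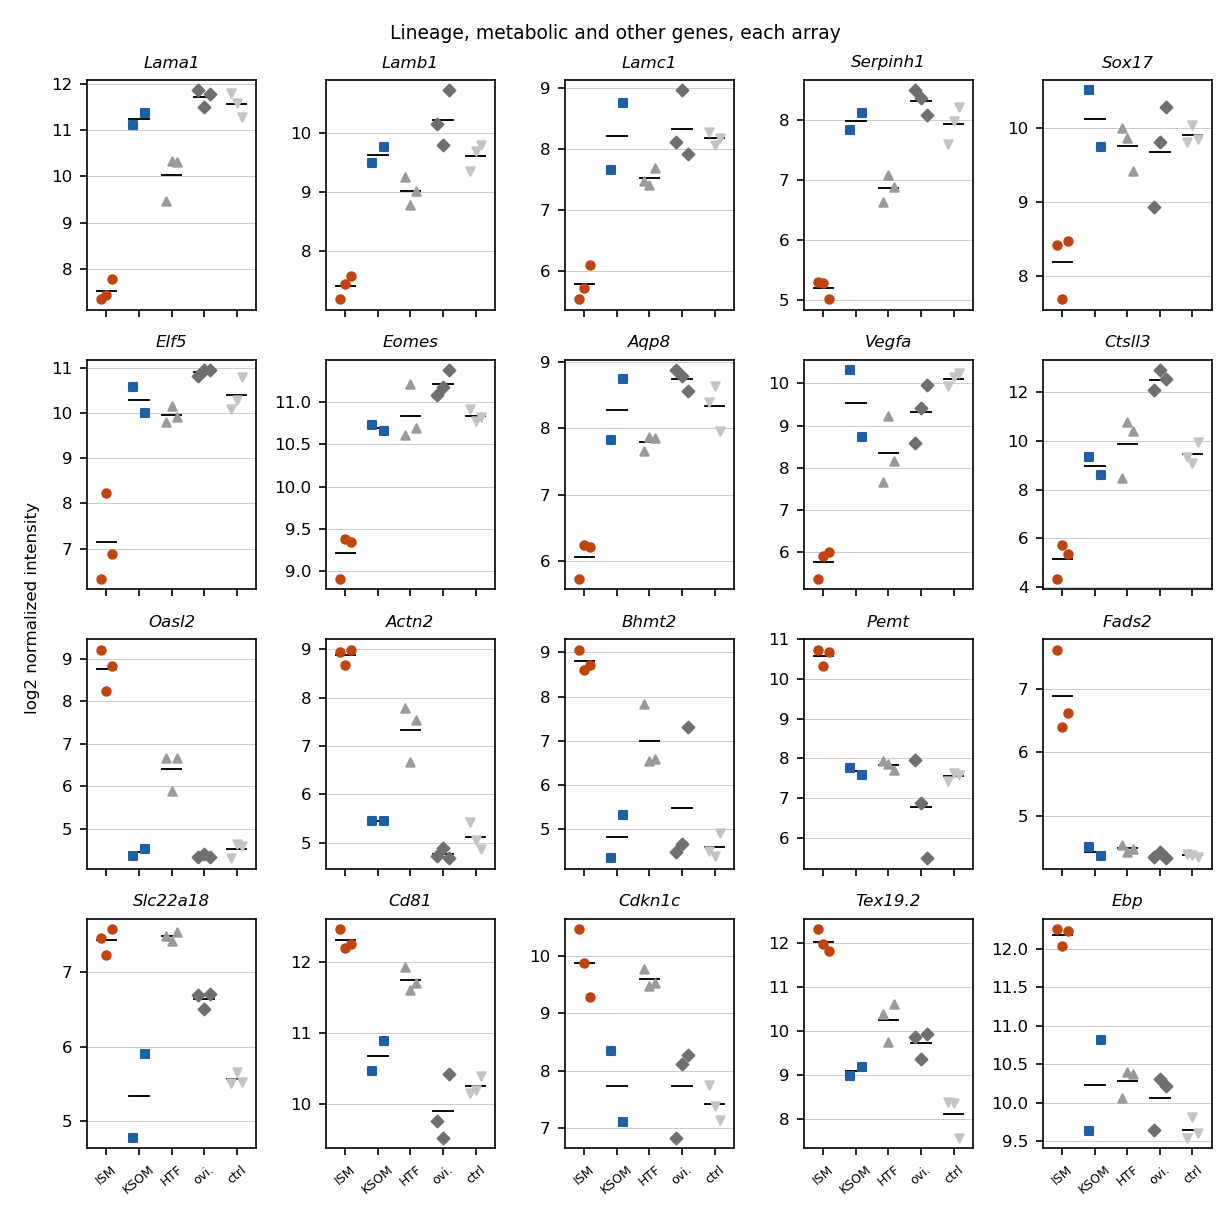
Log2 normalized intensity of 20 further genes on each array, drawn as in the plot of amino acid genes and with a scale for each panel. *Oasl2*, *Actn2*, *Pemt*, *Fads2* and *Ebp* stand above all other arrays in ISM1/ISM2, while *Slc22a18* and *Cdkn1c* average 7.42 and 9.88 in ISM1/ISM2 and 7.47 and 9.59 in HTF/MultiBlast.

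Among the large rises was *Oasl2*, a relative of the antiviral oligoadenylate synthetases. It read 9.22, 8.24 and 8.84 in ISM1/ISM2 and 4.38 and 4.54 in KSOM(aa), where it was not detected, at least 10.9-fold higher (adjusted p = 5.18e-06). *B2m*, the light chain of class I antigen molecules, read 9.39, 9.06 and 9.77 in ISM1/ISM2 and 8.48 and 7.01 in KSOM(aa) (1.67 ± 0.38, adjusted p = 0.0137). It moved to 0.93 without KSOM(aa) replicate 2 (adjusted p = 0.145) and 2.40 without KSOM(aa) replicate 1. *Bst2*, which tethers virus particles, read 8.14, 7.66 and 7.82 in ISM1/ISM2 and 6.92 and 6.69 in KSOM(aa) and missed the threshold (1.07 ± 0.33, adjusted p = 0.0518). Of 14 measured interferon and class I genes, 2 rose and 0 fell (14.3%, near the share of all units), with a median of 0.49. A further 15 genes of that list did not reach the detection filter. The core of the interferon response element, GAAA, 2 bases of any kind and GAAA again, was searched on both strands. It was found in 6 of 14 promoters of the list (42.9%) and in 3.99% of all promoters. Of these holders only *B2m* was called. *Bst2* was not, nor were *Stat2*, *H2-T23*, *Ifitm2* and *Ifitm3*, at 0.69, 0.50, -0.003 and -0.22. Over all tested genes, matches were in 3.03% of promoters of genes called higher, 3.67% called lower and 3.51% not called. The windows of the called gene *B2m* and of *Bst2*, which holds overlapping matches, are shown, and the window searched for *Oasl2* held no match of these letters.
B2m (chr2:122147523-122147582, plus strand): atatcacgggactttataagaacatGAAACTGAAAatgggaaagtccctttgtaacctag
Bst2 (chr8:71537568-71537627, minus strand): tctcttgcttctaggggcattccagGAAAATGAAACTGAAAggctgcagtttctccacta

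Genes that handle betaine, choline and methyl groups held 3 of the larger rises and 1 large fall. Of 14 measured genes, 4 rose and 1 fell (35.7%), with a median of 0.28, and all 5 were called in the 14 fits. *Bhmt2*, which passes a methyl group to homocysteine, read 9.07, 8.61 and 8.72 in ISM1/ISM2 and 4.33 and 5.31 in KSOM(aa), where 1 array detected it (3.98 ± 0.67, adjusted p = 0.00241). Its neighbour on chromosome 13, *Bhmt*, which uses betaine, rose by 1.87 (adjusted p = 0.00393). *Dmgdh*, which removes a methyl group from the dimethylglycine that *Bhmt* leaves, was dark in KSOM(aa) and at least 4.23-fold higher (7.83, 7.12 and 7.25 in ISM1/ISM2 and 4.93 and 5.10 in KSOM(aa), adjusted p = 0.00108). *Pemt*, which methylates phosphatidylethanolamine to phosphatidylcholine, read 10.74, 10.32 and 10.69 in ISM1/ISM2 and 7.76 and 7.59 in KSOM(aa), 7.49-fold higher (adjusted p = 0.00202). The choline carrier *Slc44a1* read 6.61, 7.83 and 8.06 in ISM1/ISM2 and 9.72 and 10.26 in KSOM(aa) (-2.49 ± 0.41, adjusted p = 0.00184). A further probe gave -2.46 (adjusted p = 0.00148) and another -0.56 (0.185). *Slc6a12*, the carrier of betaine and GABA, was dark in KSOM(aa) and at least 3.66-fold higher (7.22, 7.40 and 6.96 in ISM1/ISM2 and 5.24 and 5.13 in KSOM(aa), adjusted p = 0.000302). It belongs to the 10 measured osmolyte genes, of which 1 rose and 3 fell (40%), the falls being *Slc6a9*, *Aqp8* and *Aqp3* named above. Without KSOM(aa) replicate 2 that list had 2 calls.

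Lipid synthesis genes that passed were all higher. Of 17 measured cholesterol synthesis genes, 4 rose and 0 fell (23.5%), with a median of 0.74 (0.73 with the 1 dark gene at its bound) and 15 above 0. *Ebp*, the sterol isomerase, read 12.25, 12.03 and 12.23 in ISM1/ISM2 and 9.64 and 10.81 in KSOM(aa) (1.95 ± 0.30, adjusted p = 0.00139). *Fdps*, *Tm7sf2* and *Insig1* rose by 0.95, 0.81 and 0.73 (adjusted p = 0.0161, 0.0158 and 0.0414). These are the weaker calls. Without ISM1/ISM2 replicate 1, or without KSOM(aa) replicate 1, only 1 gene of the list was called, with *Fdps* at 0.0619 and 0.104 and *Tm7sf2* at 0.0564 and 0.0718, and *Insig1* was lost in 10 fits, with 0.169 without KSOM(aa) replicate 1. *Hmgcs1*, the entry enzyme of the pathway, overlapped (13.86, 13.40 and 13.23 in ISM1/ISM2 and 13.82 and 13.77 in KSOM(aa)) and did not pass (-0.29 ± 0.23, adjusted p = 0.453). Of 12 fatty acid synthesis genes, 3 rose and 0 fell (25%), with a median of 0.56. *Fads2*, the delta-6 desaturase of polyunsaturated fatty acids, was detected on all ISM1/ISM2 arrays (7.62, 6.40 and 6.61) and no KSOM(aa) array (4.50 and 4.36), at least 2.95-fold higher (adjusted p = 0.000196). Its group means were 4.48, 4.37 and 4.38 in HTF/MultiBlast, oviduct and control. *Acaca*, acetyl-CoA carboxylase, read 11.07, 10.64 and 10.57 in ISM1/ISM2 and 9.63 and 9.89 in KSOM(aa) (1.00 ± 0.22, adjusted p = 0.00954). *Fads1*, the delta-5 desaturase, rose by 1.69 (adjusted p = 0.0314), and its call ended without ISM1/ISM2 replicate 1 or either KSOM(aa) array (0.105, 0.06 and 0.137).

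Genes of sugar use, oxygen response and oxidative defence were split. Among 15 glycolysis genes, 3 rose and 2 fell (33.3%), with a median of -0.27 (-0.22 with dark genes at their bound). The aldolase *Aldoc*, dark in KSOM(aa), was at least 2.51-fold higher (6.92, 6.13 and 6.89 in ISM1/ISM2 and 4.61 and 4.96 in KSOM(aa), adjusted p = 0.00278), and the enolase *Eno2* rose by 1.47 (adjusted p = 0.00345). *Pkm* rose by 1.30, *Ldha* fell by 1.12 and *Hk2* fell by 0.72 (adjusted p = 0.0387, 0.0229 and 0.0367), lost in 8, 2 and 8 of the 14 fits and reaching 0.227, 0.155 and 0.142 without KSOM(aa) replicate 1, 2 and 1. The list had 2 calls without ISM1/ISM2 replicate 2. Among 14 hypoxia-linked genes, 2 rose and 2 fell (28.6%). *Vegfa*, the vascular growth factor, read 5.37, 5.91 and 6.01 in ISM1/ISM2 and 10.32 and 8.73 in KSOM(aa), 13.6-fold lower (-3.76 ± 0.51, adjusted p = 0.000574), and a further probe, dark in ISM1/ISM2, was lower (0.00644). *Ndrg1* fell by 1.39 (adjusted p = 0.00302), while *Egln3*, an oxygen-sensing hydroxylase, rose by 2.20 and *Bnip3l*, a mitophagy receptor, by 1.22 (adjusted p = 0.0156 and 0.0191). Both rises lost their call without ISM1/ISM2 replicate 1 (0.0623 and 0.0732) and without KSOM(aa) replicate 2 (0.117 and 0.174). In the glutathione and antioxidant list of 26 genes, 4 rose and 2 fell (23.1%), with a median of 0.45. The transferase *Gstp1* read 10.82, 10.67 and 10.46 in ISM1/ISM2 and 9.10 and 8.84 in KSOM(aa) (1.68 ± 0.24, adjusted p = 0.000721), and superoxide dismutase *Sod1* read 12.93, 12.88 and 12.90 in ISM1/ISM2 and 11.66 and 12.09 in KSOM(aa) (1.03 ± 0.20, adjusted p = 0.00477). The near-identical *Gsta1* and *Gsta2* on chromosome 9, whose probes may share signal, fell by 1.44 and 1.75 (adjusted p = 0.00271 and 0.00137). *Gsta3* rose by 1.72 and *Prdx4* by 0.65 (adjusted p = 0.0384 and 0.0461), lost in 8 and 12 fits, with 0.252 without KSOM(aa) replicate 2 and 0.147 without KSOM(aa) replicate 1.

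Other large rises came from genes of unlike function, each called in all 14 fits with 1 array left out. Of those named next, *Kif3c* lost its call with only the 2 groups in the fit (adjusted p = 0.0535), and *Mocos* and *Tpm2* lost theirs with array weights (0.0556 and 0.0578). *Arg2*, the mitochondrial arginase, was dark in KSOM(aa) and at least 6.78-fold higher (8.09, 7.90 and 8.25 in ISM1/ISM2 and 4.44 and 4.87 in KSOM(aa), adjusted p = 0.000517). *Actn2*, an alpha-actinin of muscle, read 8.94, 8.68 and 8.99 in ISM1/ISM2 and 5.44 and 5.46 in KSOM(aa), 10.7-fold higher (adjusted p = 1.84e-05). *Abcb1b*, a P-glycoprotein drug pump, read 10.12, 9.34 and 9.38 in ISM1/ISM2 and 6.62 and 6.50 in KSOM(aa) (3.05 ± 0.38, adjusted p = 0.000313). *Mocos*, which activates molybdenum enzymes, *Cbr3*, a carbonyl reductase, and *Masp2*, a protease of the complement lectin pathway, rose by 3.18, 2.91 and 2.91 (adjusted p = 0.00357, 0.000427 and 0.000196). *Mlkl*, the effector of necroptosis, *Kif3c*, a kinesin, and *Mslnl*, a mesothelin relative, were dark in KSOM(aa) and at least 4.50-, 5.99- and 4.48-fold higher (adjusted p = 0.000196, 0.00108 and 0.000196). Further probes of *Mlkl* and *Masp2*, both dark in KSOM(aa), were higher as well (adjusted p = 0.00764 and 0.00071). Among 17 muscle-type cytoskeleton genes, 3 rose and 1 fell (23.5%): *Actn2*, *Myl4* by 2.07 and *Tpm2* by 1.46 were higher, and *Fhl1* was dark in ISM1/ISM2 and at least 5.19-fold lower (adjusted p = 0.00241, 0.00481 and 0.00313 for the last 3). The 5 muscle and stroma markers summed to 6.84 to 6.94 log2 units in ISM1/ISM2 and 7.02 to 7.11 in KSOM(aa), with *Acta2* not detected in ISM1/ISM2.

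*Tex19.2*, a gene of germ cells and placenta, read 12.31, 11.97 and 11.80 in ISM1/ISM2 and 8.97 and 9.19 in KSOM(aa), 7.70-fold higher (adjusted p = 0.000144). The X-linked homeobox gene *Rhox5* rose by 1.44 (adjusted p = 0.00247). *Tex19.2* and *Rhox5* were the 2 calls among 14 genes of the 2-cell stage and germline (14.3%, near the 11.6% of all units). The median of that list was 0.98 (0.89 with dark genes at their bound), and 0.61 to 1.24 with 1 array left out. The differences of *Tcstv3* and *Tcstv1*, 3.33 and 2.44, did not pass (adjusted p = 0.21 and 0.338), and ISM1/ISM2 replicate 3 alone was high, at 12.67 and 11.78, with 7.40 to 7.85 and 6.06 to 6.41 on the other 2 ISM1/ISM2 arrays. *Padi6*, a maternal-effect gene of the oocyte, read 8.81, 8.17 and 8.99 in ISM1/ISM2 and 5.49 and 6.47 in KSOM(aa) (2.67 ± 0.38, adjusted p = 0.000807). *Nlrp14* rose by 1.23 (adjusted p = 0.0426) and was lost in 9 fits, with 0.31 without KSOM(aa) replicate 2. These were the 2 calls among 7 oocyte genes (28.6%). The 3 oocyte markers summed to 7.31 to 8.62 log2 units in ISM1/ISM2 and 7.61 to 7.76 in KSOM(aa), and their part in these values was not tested.

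The remaining large falls were also called in all 14 fits with 1 array left out, and with only the 2 groups or array weights. *BC051665* and *Ctsll3*, both on chromosome 13, fell by 4.16 and 3.83 (adjusted p = 0.000354 and 0.00123). *BC051665* read 8.10, 10.57 and 10.20 in ISM1/ISM2 and 13.53 and 14.04 in KSOM(aa). *Ctsll3*, a cathepsin L-like protease gene, read 4.34, 5.72 and 5.35 in ISM1/ISM2 and 9.32 and 8.61 in KSOM(aa). *Flrt3*, a transmembrane protein that binds fibroblast growth factor receptors, read 7.12, 4.79 and 5.39 in ISM1/ISM2 and 9.27 and 9.18 in KSOM(aa) (-3.45 ± 0.52, adjusted p = 0.00126). *Slc22a4*, a carrier of ergothioneine, read 5.12, 5.38 and 4.95 in ISM1/ISM2 and 8.55 and 8.56 in KSOM(aa) (-3.40 ± 0.24, adjusted p = 6.25e-06). *Ctsll3*, *Flrt3* and *Slc22a4* were each detected on 1 ISM1/ISM2 array, so their differences rest partly on undetected values.

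The shares called among ribosomal, respiratory chain, heat shock and cell cycle genes lay below the 11.6% of all units, a difference that was not tested. Of 58 ribosomal protein genes, 3 rose and 1 fell (6.9%), and of 71 respiratory chain genes, 2 rose and 1 fell (4.23%), with medians of 0.11 and 0.07. *Rpl24*, *Rps15* and *Rpl39l* rose by 1.30, 0.88 and 1.23 and *Rpl22* fell by 1.20 (adjusted p = 0.0085, 0.0118, 0.0231 and 0.00312). *Cox7a1* rose by 1.32 (adjusted p = 0.0151), *Cox8c*, dark in KSOM(aa), was at least 1.10-fold higher (0.0408) and *Cox6a2*, dark in ISM1/ISM2, at least 1.81-fold lower (0.0364). Only *Rpl22* of these 7 was called in all 14 fits, and the 2 lists had 9 and 6 calls without KSOM(aa) replicate 1 and 1 each without KSOM(aa) replicate 2. Heat shock chaperones had 1 rise of 16 (6.25%), in *Hspb8*, a small chaperone (1.93 ± 0.31, adjusted p = 0.00158). Cell cycle genes had 1 rise and 1 fall of 25 (8%), the cyclins *Ccne1* (1.17) and *Ccnd1* (-1.59), with adjusted p = 0.0228 and 0.0251, lost in 3 and 4 fits. DNA methylation genes had 2 falls of 10 (20%), *Mbd1* by 1.04 and *Dnmt3b*, with adjusted p = 0.0277 and 0.0444, lost in 4 and 11 fits. Lysosomal genes had 3 rises of 20 (15%), the proteases *Ctsh* by 1.08 and *Ctsd* by 0.82 and the sialidase *Neu1* by 0.71 (adjusted p = 0.00891, 0.0296 and 0.0314). Genes of the p53 pathway and apoptosis had 3 rises of 19 (15.8%), *Tnfrsf10b* by 1.19, *Bcl2l11* by 1.09 and *Ccng1* by 1.05 (adjusted p = 0.00889, 0.012 and 0.0155). Further probes of *Tnfrsf10b* gave 0.03, 0.80 and 1.33, of which the last passed, and those of *Ccng1* gave 0.55 and 0.64 and did not pass. None of these last 6 genes was called in all 14 fits, and both lists had 1 call without KSOM(aa) replicate 2. With only the 2 groups in the fit, or with array weights, the respiratory chain, cell cycle, DNA methylation, lysosome and p53 lists lost all their calls. The cholesterol, fatty acid, interferon, oocyte and epiblast lists had 1 call each in either fit. Trophectoderm genes had 3 calls with only the 2 groups and 5 with array weights, glycolysis 2 and 1, hypoxia-linked genes 2 and 1, and glutathione and antioxidant genes 2 and 4. Transporters had 7 falls in either fit, amino acid response genes 6 and basement membrane genes 7, while primitive endoderm genes had 6 and 7.

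**Figure D4:**
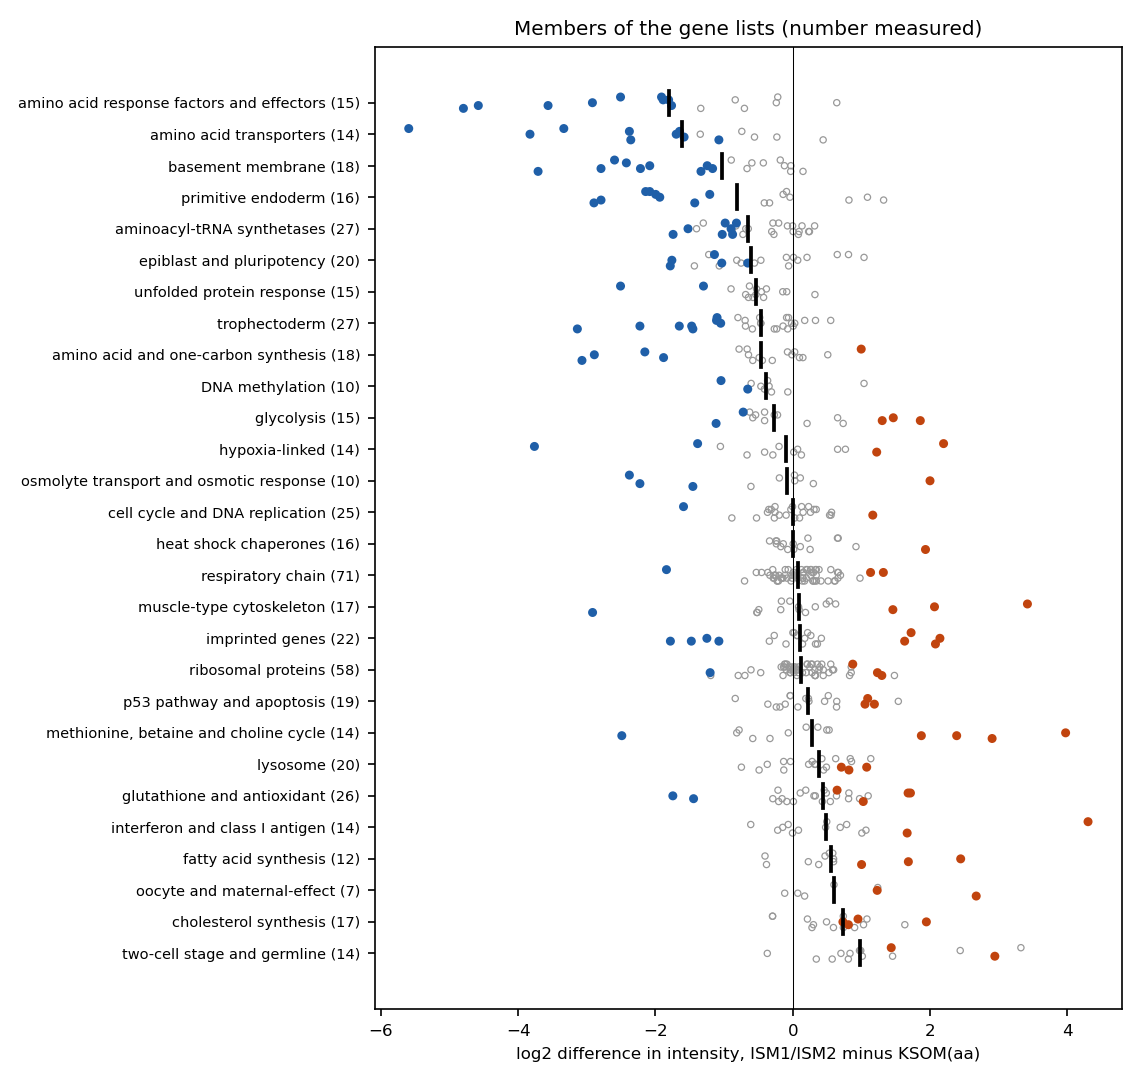
Log2 difference in intensity (ISM1/ISM2 minus KSOM(aa)) of each measured member of the 28 gene lists, with filled points for members called higher (red) or lower (blue), open points for the rest, and a black bar at each list's median. Amino acid response and transporter genes lie lowest, with medians of -1.81 and -1.62, and genes of the 2-cell stage and germline highest, with a median of 0.98 and 2 calls.

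The difference lay mostly on the ISM1/ISM2 side when both groups were set against the 3 groups outside the comparison, a test added after the data were seen. Against the mean of HTF/MultiBlast, oviduct and control, 1975 units (22.8%) were called for ISM1/ISM2, 1055 higher and 920 lower. For KSOM(aa) against the same mean, limma called 0 units, and 451 (5.2%) had an unadjusted p under 0.05. The tests share the 9 outside arrays, and KSOM(aa) has 1 array fewer and the wider spread (root mean square SD 0.377 in ISM1/ISM2 and 0.572 in KSOM(aa)), so the 2 counts are not equally powered. The 3 ISM1/ISM2 arrays lay outside the range of the other 11 in 732 of the 1006 called units, 410 above and 322 below, against 14.2% of all units. The KSOM(aa) arrays lay outside the range of the other 12 in 44 of the 1006, against 1.5% of all units. The 1006 units were chosen by the difference between ISM1/ISM2 and KSOM(aa), and in none did these arrays overlap. The shares of all units are therefore not a like baseline, and both counts are a description. *Lama1* was -3.57 ± 0.20 in ISM1/ISM2 and 0.14 ± 0.23 in KSOM(aa) relative to the outside mean, and *Pemt* was 3.2 ± 0.35 in ISM1/ISM2 and 0.29 ± 0.41 in KSOM(aa). *Ctsll3* and *Slc22a18* lay away from the outside mean in both groups, at -5.48 ± 0.42 and 0.86 ± 0.19 in ISM1/ISM2 and -1.65 ± 0.50 and -1.22 ± 0.23 in KSOM(aa), where neither passed (adjusted p = 0.843 and 0.822).

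The outside groups did not sit alike. On a scale where the KSOM(aa) mean is 0 and the ISM1/ISM2 mean is 1, the median position over the 1006 called units was 0.327 for HTF/MultiBlast, -0.005 for oviduct and 0.019 for the control. The HTF/MultiBlast mean lay between the other 2 in 884 units (87.9%), against 489 for oviduct (48.6%) and 537 for the control (53.4%). For *Slc7a3* the group means were 4.88 in ISM1/ISM2, 8.77 in HTF/MultiBlast, 11.01 in the control, 11.58 in oviduct and 10.48 in KSOM(aa). For *Asns* they were 11.02, 12.71, 13.48, 13.56 and 13.17 in the same order of groups. For *Oasl2* they were 8.76 in ISM1/ISM2, 6.41 in HTF/MultiBlast, 4.52 in the control, 4.37 in oviduct and 4.46 in KSOM(aa). These units were chosen by the difference between ISM1/ISM2 and KSOM(aa), so the positions are a description.

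**Figure D5:**
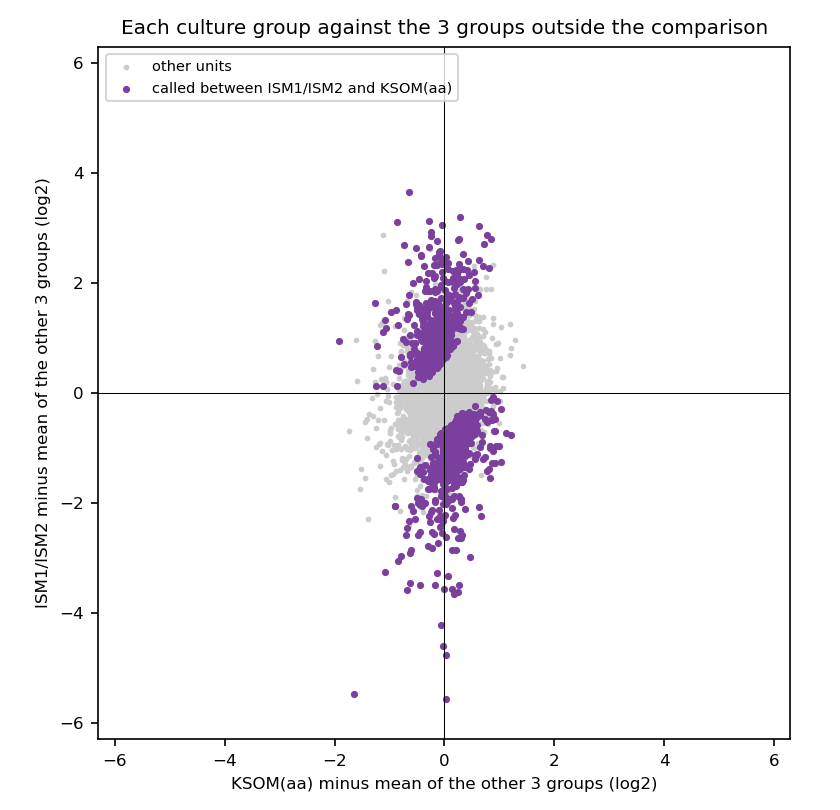
Each point is a unit, with KSOM(aa) minus the mean of the 3 outside groups across and ISM1/ISM2 minus the same mean upward, in log2 units on equal scales. Purple points are the 1006 units called between ISM1/ISM2 and KSOM(aa), whose median distance from 0 was 1.09 upward and 0.21 across.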

How the data were processed

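The deposited tables hold, for each array, a probe intensity and a detection p-value. The submitters' processing notes name BeadStudio 3.2, RMA and lumi, without order or role. The deposited intensities, which the values show to be on a linear scale and not yet made equal between arrays, were corrected for background and quantile normalized here with neqc (limma 3.58.1, R 4.3.3, offset 16, negative-control parameters taken from the detection p-values). The authors' own log2 values were deposited as well and served as an alternative. Probes with a detection p under 0.01 on at least 2 of the 14 arrays were kept, and the brightest probe stood for a gene. 1 linear model over the 5 groups was fitted with limma's moderated test, and p-values were adjusted by Benjamini-Hochberg over all 8669 units, with a threshold of 0.05. An error after ± is a standard error. A probe detected on no array of a group is called dark in that group, and where it was detected in the other the text gives a bound on the fold or its adjusted p alone. A probe detected on only part of a group's arrays is given at its fitted difference, which then rests partly on undetected values. The figures, the ranking of named genes and the list medians use fitted values, and a median that moves with dark genes at their bound is given both ways. Each dark array then stood at its dimmest detected signal, or at the probe's value where that was higher.

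Genes were named by a rule: the 14 largest rises and falls called in all 14 fits without 1 array, up to 3 called members in each direction of each list, and 18 genes by name. Other list members were named after their values were seen. The members, the 28 gene lists and the rule were chosen with earlier results of these data known. The comparison with the outside groups and the list counts without 1 array were added after the data were seen. Of 25697 probes, 23978 had 1 symbol in the platform annotation and 1719 had none. Promoter sequences are RefSeq's (GRCm38.p6). The fit was tested on simulated data. Alternatives were the authors' values, 75th percentile scaling, offset 50, other filters and probes, array weights, the 2 groups alone, a replicate block and each array left out.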

Additional observations from a re-analysis of the deposited data

How the results depend on the processing

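With 3 and 2 arrays, the count of called units depended on how the spread was estimated more than on the scaling. Against 1006 units (545 higher, 461 lower; 708 by at least 2-fold), a fit of only the 2 groups called 263 (134 higher, 129 lower; 263 by at least 2-fold) and array weights 347 (177 higher, 170 lower; 344 by at least 2-fold). Leaving out 1 array gave 601 to 1262 units, 305 to 678 higher, 296 to 584 lower and 522 to 1103 by at least 2-fold. The authors' values gave 911, the 75th percentile 797, offset 50 1045, no filter 891 of 18312, probes detected on all 5 arrays 713 of 6361 (448 by at least 2-fold), and every probe on its own 1186 of 10975. No unit shared between these fits and the 1006 turned its sign, and no scaling moved the median of all units by over 0.1. In no called unit did the arrays of the 2 groups overlap. Leaving out an array, weighting arrays or fitting the 2 groups alone therefore could not turn the sign of a called unit. With the replicate number as a block the count was 933. Same-numbered arrays correlated at 0.111 and 0.188 in their deviations, but with only 2 pairs the numbers are not shown to pair the arrays. The deviations of the 2 KSOM(aa) arrays mirror each other, so the same ISM1/ISM2 arrays gave -0.111 and -0.188 with the other KSOM(aa) array. The 2 correlations are therefore not independent. Of 111 named genes, 102 were called and 53 of these were called in every setting that gave a value. Over 2521 recomputed values, 2265 stayed on their side of the threshold, 247 lost a call, 9 gained one and 0 reversed. The cause of these shifts was not tested.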
